A study of Rattus norvegicus with 9 samples.

Results

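The genes described here are 10 that mark scar-associated macrophages and their lysosomes: Gpnmb, Lgals3, Cd63, Cd68, Trem2, Cd9 and the cathepsins Ctsb, Ctsd, Ctsk and Ctss. They were chosen by name, with earlier results of these data known, and are 10 of the 14377 genes that a probe set of the array names alone. The 10 genes have 11 probe sets, and each gene is read by the one selected on its highest mean signal over the 9 arrays, a choice that gets no test. Liver RNA from male Sprague-Dawley rats was hybridised to Affymetrix rat expression arrays, with 3 arrays for each of 3 treatments, vehicle, CCl4, and CCl4 with rottlerin (CCl4+Rot). Rats of the CCl4 group received repeated intraperitoneal injections of CCl4 in olive oil, a hepatotoxin that causes liver fibrosis. Rats of the CCl4+Rot group received CCl4 and also intraperitoneal rottlerin, an activator of BK potassium channels, which was begun after the first CCl4 injection. The study asked whether activating BK channels lessens liver fibrosis, and these arrays give the transcripts of the whole tissue. Because whole liver was used, more macrophages and more RNA of a gene per macrophage cannot be told apart.

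Resident and recruited macrophages take up dead cells, lipid and matrix fragments and break them down in the lysosome, an acidic compartment filled with proteases of the cathepsin family. In scarred liver, macrophages beside the fibrous bands are known to carry the lipid-sensing receptor TREM2, the tetraspanin CD9 and the glycoprotein GPNMB. Galectin-3 (Lgals3), a secreted lectin, CD63 and CD68, proteins of the lysosomal membrane, and cathepsins B, D, K and S are abundant in such cells, although hepatocytes, stellate cells and bile duct cells also make several of them. Many lysosomal genes carry short E-box sequences near their start sites that factors of the MiT/TFE family bind.

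Promoter windows are shown for Gpnmb, Cd63 and Ctsd, a surface glycoprotein, a tetraspanin and a protease, since these 3 hold the E-box letters and were among the genes with the largest differences from vehicle measured below. Each window holds 250 bases before and 50 bases from an annotated start (RefSeq, build GRCr8), written 5′ to 3′ on the strand of the gene. Capitals mark the letters of the motifs searched on both strands, which are the E-box CACGTG, its longer form TCACGTG, the MITF form TCACATGA and the AP-1 sequence TGAGTCA.
Gpnmb, chr4:79340878-79341177, plus strand: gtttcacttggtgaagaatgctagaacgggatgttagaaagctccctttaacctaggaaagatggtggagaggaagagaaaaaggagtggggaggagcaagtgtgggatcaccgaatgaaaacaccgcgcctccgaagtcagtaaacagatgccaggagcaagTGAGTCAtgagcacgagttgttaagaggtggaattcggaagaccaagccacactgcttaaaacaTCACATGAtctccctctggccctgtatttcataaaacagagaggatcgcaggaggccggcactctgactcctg
Cd63, chr7:1921894-1922193, plus strand: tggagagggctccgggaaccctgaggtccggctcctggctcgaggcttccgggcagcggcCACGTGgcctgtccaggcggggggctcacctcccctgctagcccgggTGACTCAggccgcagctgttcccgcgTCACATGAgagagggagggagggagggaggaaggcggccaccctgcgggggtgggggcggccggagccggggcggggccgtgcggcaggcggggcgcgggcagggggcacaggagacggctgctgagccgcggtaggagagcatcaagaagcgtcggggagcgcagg
Ctsd, chr1:206968772-206969071, minus strand: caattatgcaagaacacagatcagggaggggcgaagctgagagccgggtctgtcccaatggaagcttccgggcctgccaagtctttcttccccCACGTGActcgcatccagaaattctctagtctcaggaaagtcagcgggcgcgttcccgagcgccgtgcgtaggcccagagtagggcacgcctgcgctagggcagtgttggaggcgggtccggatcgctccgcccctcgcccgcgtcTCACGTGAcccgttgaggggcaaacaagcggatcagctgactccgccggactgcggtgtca
The Cd63 window lies inside the annotated span of the gene, at one of its start sites. TCACATGA, a form of E-box that MITF binds, lay 23 bases before the start of Gpnmb and 117 bases before that of Cd63, and its reverse complement lay 3 bases after that of Ctss. CACGTG lay 190 bases before the start of Cd63 and 157 and 10 bases before that of Ctsd, where both copies also lie within the longer form or its reverse complement. TGAGTCA lay 87 bases before the start of Gpnmb, 143 bases before that of Cd63 (as TGACTCA), and 205 and 80 bases before that of Cd68. Of the 8 genes with a window, 2 held CACGTG and 1 of these held its longer form, against 6.42% and 3.20% of all 33469 windows of the same length. TCACATGA was held by 3 of the 8 and by 1.16% of all windows, and TGAGTCA by 3 of the 8 and by 4.63%. The motifs were chosen with these windows in view, and a match describes letters only.

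Of the 9 arrays, CCl4 replicate 3 stood apart, with a median log2 signal of 7.81 against 6.79 to 7.01 on the others and 12714 probe sets called present against 15550 to 16849. The tissue label was checked with the hepatocyte list, whose 11 measured genes, albumin among them, had a present call on all 9 arrays. Their summed signal was 229877 on CCl4 replicate 3 and 306134 to 345138 on the other arrays. Of the 10 genes, 7 were called present on every array. Cd9 was called present on 6 arrays, Ctsk on 2, and Trem2 on none, on either of its probe sets. Signals below are log2 values, and since each probe set has its own brightness they are compared between arrays, never between genes.

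**Figure D1:**
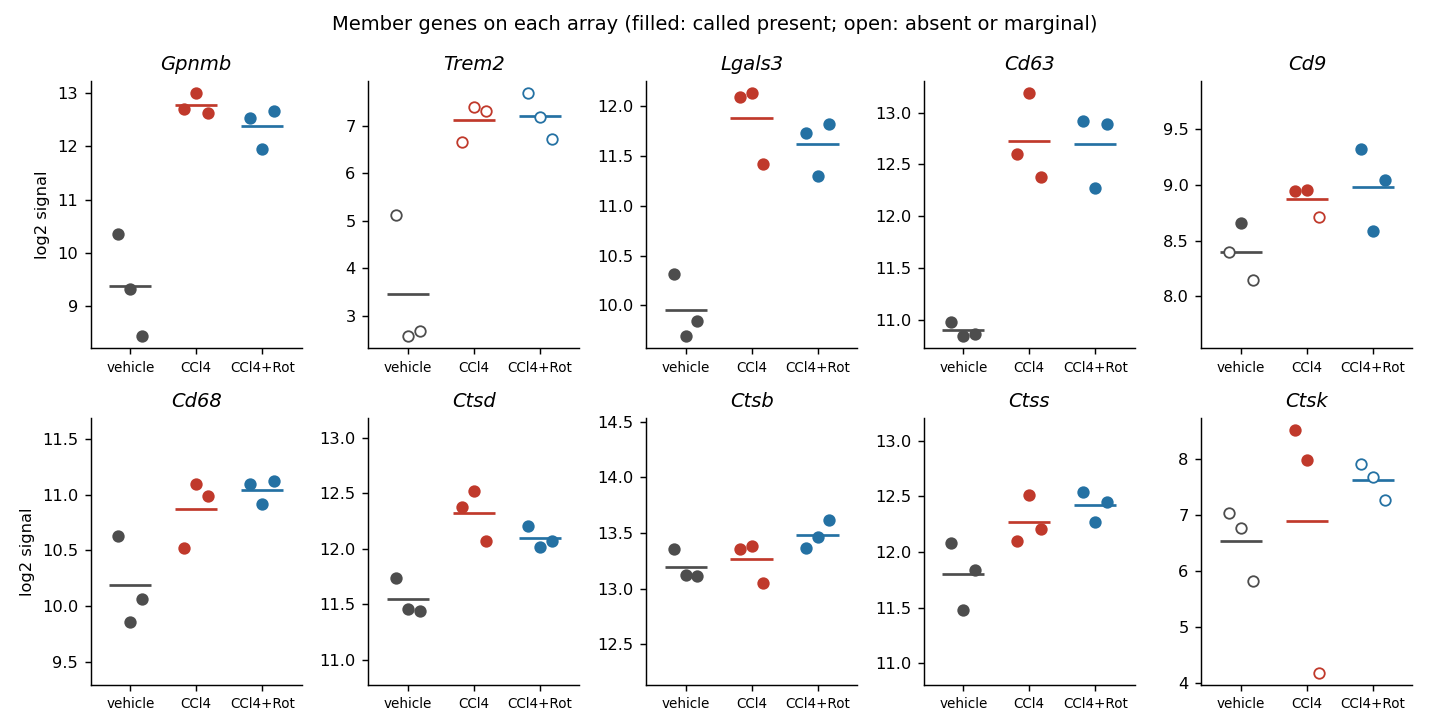
Log2 signal of each of the 10 genes (one panel per gene, each with its own vertical axis) on each array by group. Circles are single arrays, filled where the gene was called present and open where it was marginal or absent, and horizontal bars are group means of 3 arrays. Gpnmb, Lgals3, Cd63 and Ctsd sit higher on every CCl4 and CCl4+Rot array than on any vehicle array, and every Trem2 circle is open.

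With CCl4, 3 genes stood far above vehicle: Gpnmb by 10.6-fold, Lgals3 by 3.81-fold and Cd63 by 3.54-fold. Ctsd was 1.71-fold and Cd68 1.61-fold higher, and Ctss, Cd9 and Ctsb were less than 1.5-fold higher. Limma over all 31042 probe sets called none of the 10 (adjusted p below 0.05 by the Benjamini-Hochberg method and at least 1.5-fold), and 6 had an unadjusted p below 0.05, as had 12.4% of all probe sets. A second limma fit, in which the variance depends on signal strength and outlying variances count less (the robust fit), called Gpnmb, Lgals3, Cd63, Ctsd and Trem2 higher.

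Gpnmb encodes a transmembrane glycoprotein of lysosomes and phagosomes. Its log2 signal was 10.36, 9.32 and 8.44 in the vehicle rats (mean 9.37 ± 0.96, SD, n = 3), 12.71, 13.00 and 12.62 in the CCl4 rats (12.78 ± 0.20) and 12.54, 11.96 and 12.66 in the CCl4+Rot rats (12.38 ± 0.38). The vehicle rats spread over a wide range, yet the lowest CCl4 array was 2.27 above the highest vehicle array. The log2 difference between CCl4 and vehicle was 3.40 (SE 0.46, 95% confidence interval 2.33 to 4.47). Its limma adjusted p was 0.156, and 0.00872 in the robust fit. Over those of the 22 alternatives that adjust p, it ranged from 0.00872 to 0.386. Ranges of adjusted p given below leave out the methods' t-test without adjustment in the same way.

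Lgals3 encodes galectin-3, which binds glycans on cell surfaces and on damaged lysosomes. Its log2 signal was 10.32, 9.69 and 9.84 with vehicle (mean 9.95 ± 0.33, SD, n = 3), 12.09, 12.13 and 11.42 with CCl4 (11.88 ± 0.40) and 11.72, 11.30 and 11.82 with CCl4+Rot (11.61 ± 0.27). CCl4 replicate 3 was the lowest of its group and still lay above all vehicle arrays, which were 1.10 or more lower. The log2 difference of 1.93 (SE 0.28, 95% confidence interval 1.28 to 2.58) had a limma adjusted p of 0.168, and of 0.00343 in the robust fit (range over the alternatives 0.00343 to 0.429). Without CCl4 replicate 3 it was 2.16.

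Cd63 encodes a tetraspanin of late endosomes, lysosomes and exosomes. Its log2 signal was 10.98, 10.85 and 10.87 with vehicle (mean 10.90 ± 0.07, SD, n = 3), 12.60, 13.19 and 12.38 with CCl4 (12.72 ± 0.42) and 12.91, 12.27 and 12.89 with CCl4+Rot (12.69 ± 0.36). The vehicle arrays were the tightest of any of the 10 genes, and both treated groups lay clear of them with a spread several times as wide. The log2 difference between CCl4 and vehicle was 1.82 (SE 0.27, 95% confidence interval 1.19 to 2.45), with a limma adjusted p of 0.171 and of 0.00343 in the robust fit (range over the alternatives 0.00343 to 0.428).

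The 4 cathepsins differed in how far their groups overlapped. Ctsd, the aspartic protease cathepsin D, had log2 signals of 11.74, 11.46 and 11.44 with vehicle, 12.37, 12.52 and 12.07 with CCl4 and 12.20, 12.02 and 12.07 with CCl4+Rot. All treated arrays lay above all vehicle arrays, by 0.33 or more with CCl4 and 0.27 or more with CCl4+Rot. Its log2 difference with CCl4 was 0.77 (SE 0.18), with a limma adjusted p of 0.231 and of 0.0291 in the robust fit (range over the alternatives 0.0169 to 0.640). Ctss, cathepsin S, a cysteine protease of antigen-presenting cells, had log2 signals of 12.08, 11.47 and 11.84 with vehicle, 12.10, 12.51 and 12.20 with CCl4 and 12.54, 12.27 and 12.45 with CCl4+Rot. The lowest CCl4 array lay only 0.03 above the highest vehicle array, and the log2 difference of 0.47 (SE 0.21) passed neither limma (adjusted p 0.420) nor the robust fit (0.206). Ctsb, cathepsin B, a cysteine protease that hepatocytes also make, had log2 signals of 13.36, 13.13 and 13.11 with vehicle, 13.36, 13.39 and 13.05 with CCl4 and 13.37, 13.47 and 13.62 with CCl4+Rot. The vehicle and CCl4 arrays overlapped fully, and the log2 difference of 0.07 (SE 0.17, 95% confidence interval -0.33 to 0.47) was 0.17 without CCl4 replicate 3 and became -0.29 when each array was centred on its median. Ctsk, cathepsin K, a collagen-degrading protease best known from osteoclasts, had log2 signals of 7.03, 6.77 and 5.83 with vehicle, 8.52, 7.98 and 4.19 with CCl4 and 7.91, 7.68 and 7.27 with CCl4+Rot. It was called present only on CCl4 replicates 1 and 2, and CCl4 replicate 3 was the lowest of all 9 arrays. The mean log2 difference of 0.35 (SE 1.04) ran from -0.46 without CCl4 replicate 1 to 1.71 without CCl4 replicate 3, so neither a direction nor a fold is given.

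Cd68, a lysosomal membrane glycoprotein used to stain macrophages, had log2 signals of 10.63, 9.86 and 10.06 with vehicle, 10.52, 11.10 and 10.99 with CCl4 and 11.10, 10.91 and 11.12 with CCl4+Rot. Vehicle replicate 3 lay above CCl4 replicate 1, so these groups overlapped, while all CCl4+Rot arrays lay above all vehicle arrays. The log2 difference with CCl4 was 0.68 (SE 0.25), with an adjusted p of 0.354 in limma and of 0.126 in the robust fit. Cd9, a tetraspanin of the cell surface, had log2 signals of 8.40, 8.66 and 8.15 with vehicle, 8.95, 8.95 and 8.72 with CCl4 and 9.32, 8.58 and 9.04 with CCl4+Rot. The CCl4 arrays lay above the vehicle arrays by only 0.05, and the log2 difference of 0.47 (SE 0.24) had an adjusted p of 0.463 in limma and of 0.335 in the robust fit.

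Trem2, the receptor for lipids and apoptotic cells that signals through Tyrobp, was called absent throughout. Its brighter probe set had log2 signals of 5.13, 2.58 and 2.68 with vehicle, 6.66, 7.41 and 7.33 with CCl4 and 7.69, 7.20 and 6.72 with CCl4+Rot. Its other probe set had 2.54, 2.45 and 3.00, then 4.03, 6.02 and 6.11, then 6.89, 4.22 and 3.48. All treated arrays were above all vehicle arrays on both, but no array reached a present call, so no fold is given and its call in the robust fit (adjusted p 0.0282) rests on signals that the array software did not separate from background.

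Read against all genes, the signals of the CCl4 arrays lay above those of all vehicle arrays for 7 of the 10 genes and for 12.5% of the 14377 genes. Among genes called present on all 9 arrays the counts were 5 of 7 and 12.1% of 7058. In the robust fit 5 of the 10 were called higher, and 0.693% of all probe sets (215 of 31042). In limma without these options, 0 of the 10 and 0% of all probe sets (0 of 31042) were called, and the methods' t-test without adjustment passed 5 of the 10 and 5.71% of all probe sets at the same fold. The median log2 difference was 0.73 over the 10 genes, 0.68 over 9 genes with Trem2 left out, and 0.18 over all probe sets. Over the 7058 genes called present on all arrays it was -0.01. Without CCl4 replicate 3 the median of the 10 genes was 1.30, and with each array centred on its median it was 0.37, with 4 genes in place of 7 not overlapping. The share of all genes not overlapping under that centring was not computed. Since the 10 genes were chosen with these results known, the counts describe them and test nothing.

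When rottlerin was added to CCl4, no difference in the 10 genes passed a test, and Gpnmb, Lgals3 and Ctsd had the lowest values relative to CCl4 alone. The log2 difference between CCl4+Rot and CCl4 was -0.39 for Gpnmb (95% confidence interval -1.46 to 0.68), -0.27 for Lgals3 (-0.91 to 0.38) and -0.22 for Ctsd (-0.65 to 0.20). It was -0.03 for Cd63 (-0.66 to 0.60), 0.11 for Cd9 (-0.45 to 0.67), 0.15 for Ctss (-0.35 to 0.64), 0.18 for Cd68 (-0.42 to 0.77) and 0.22 for Ctsb (-0.18 to 0.62). These intervals leave room for changes of more than 1.5-fold down in Gpnmb, Lgals3, Cd63 and Ctsd and up in all of them but Lgals3 and Ctsd, so equal levels are not shown. With arrays centred on their medians, the signs of Cd63 and Ctsd turned (0.22 and 0.02). Ctsk, present on 2 CCl4 arrays and no CCl4+Rot array but with a lower mean in the CCl4 group, and Trem2 are given no fold.

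None of the 10 genes was called between CCl4+Rot and CCl4 by limma, by the robust fit or by the methods' t-test without adjustment, which passed 2.74% of all probe sets, and 1 probe set was called by each limma fit (0.00322% and again 0.00322%). At an unadjusted limma p below 0.05 there were 0 of the 10 genes and 6.63% of all probe sets. For 0 of the 10 genes did these groups not overlap, while 5.57% of all genes were higher with rottlerin and 5.6% lower without overlap, and 8.13% and 4.02% of the genes called present on all arrays, again with 0 of the 7 members. This count rests on single arrays. Without CCl4 replicate 3 the rottlerin arrays lay below the other CCl4 arrays for 4 genes, Gpnmb, Lgals3, Ctsd and Ctsk, with log2 differences of -0.47, -0.50 and -0.35 for the measured 3, and for 10.4% of all genes. Without CCl4 replicate 2 they lay above them for 2 genes, Ctsb and Ctss, and for 12.3% of all genes. The log2 difference of Cd63 was -0.20, of Ctsb 0.11 and of Cd9 0.031 without CCl4 replicate 3. The median log2 difference was 0.09 over the 10 genes, -0.12 over all probe sets and 0.03 over the genes called present on all arrays.

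**Figure D2:**
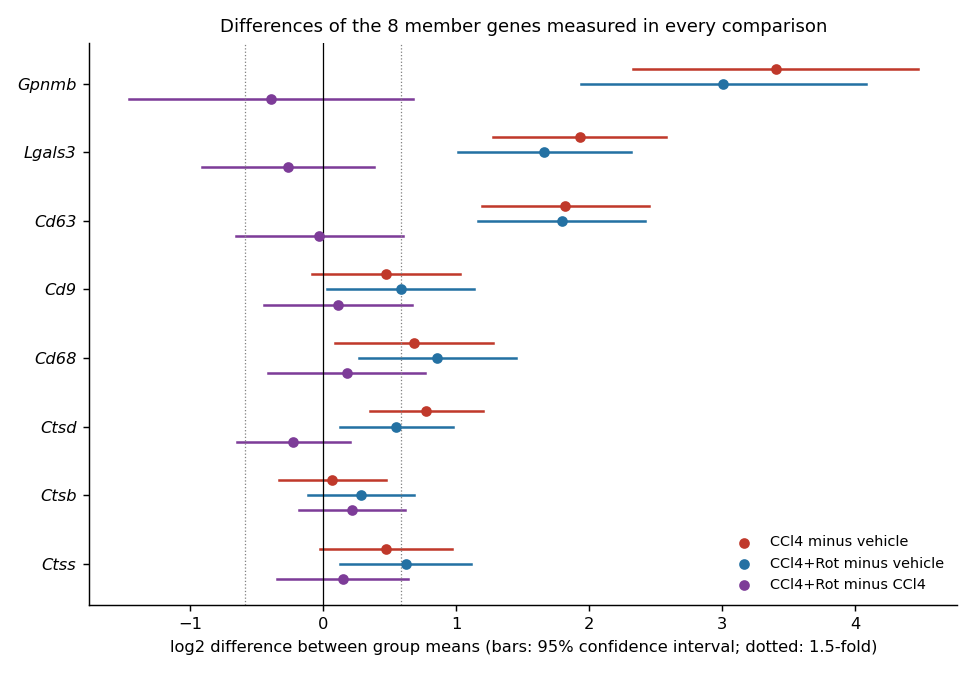
Log2 difference between group means (horizontal axis) for the 8 genes with a measured fold in every comparison, with 95% confidence intervals from limma, for CCl4 minus vehicle (red), CCl4+Rot minus vehicle (blue) and CCl4+Rot minus CCl4 (purple). Dotted lines mark 1.5-fold. Gpnmb, Lgals3 and Cd63 stand clear of 0 in both comparisons with vehicle, and all 8 purple intervals include 0.

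In the CCl4+Rot rats, Gpnmb, Cd63 and Lgals3 again stood well above vehicle. This comparison and the CCl4 comparison share the vehicle rats, so their values are given side by side only. Gpnmb was 8.06-fold (log2 3.01, SE 0.46), Cd63 3.47-fold (1.79, SE 0.27) and Lgals3 3.17-fold (1.66, SE 0.28) above vehicle, and the robust fit called all 3 higher with adjusted p of 0.0135, 0.00295 and 0.00521, where limma gave 0.161, 0.161 and 0.182. Cd68 was 1.81-fold, Ctss 1.54-fold, Ctsd 1.47-fold and Ctsb 1.22-fold higher, Cd9 was 0.58 higher on the log2 scale, and neither fit called them. Trem2 was the other gene called by the robust fit and was absent on all arrays. Ctsk had no present call in these groups and is given no fold.

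The CCl4+Rot arrays lay above all vehicle arrays for 9 of the 10 genes, every one but Cd9, and for 15.2% of all genes, and for 7 of 7 members and 16.8% of the genes called present on all arrays. Limma called 0 of the 10 and 0.0258% of all probe sets. At an unadjusted p below 0.05 there were 8 of the 10 and 8.31% of all probe sets, and the methods' t-test without adjustment passed 6 of the 10 and 6.85%. The robust fit called 4 of the 10 higher and 0.689% of all probe sets. The median log2 difference was 0.97 over the 10 genes, 0.74 without Trem2 and Ctsk, and 0.01 over all probe sets.

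Lists of related genes set the 10 genes in their pathways. Partners known from lipid-associated macrophages, 31 of them measured, had a median log2 difference of 0.62 between CCl4 and vehicle. The robust fit called 5 of them higher, and 0.693% of all probe sets, while limma without its options called 0 of them. Spp1, osteopontin, a secreted glycoprotein that bile duct cells make too, was called present with CCl4 and on no vehicle array. Its estimated fold with CCl4 was 31.96, which is no minimum. Mmp12, macrophage elastase, was 3.76 higher on the log2 scale (SE 0.57) and Pld3, a lysosomal nuclease, 1.41 higher (SE 0.24). The adjusted p of Spp1, Mmp12 and Pld3 in the robust fit were 0.0247, 0.00813 and 0.00813. The other called genes were Anxa2 and Vim, named because they were few and after their values were seen. With rottlerin in CCl4-treated rats none of the 31 was called by either fit. The log2 difference was -2.09 for Spp1 (SE 0.72) and -1.20 for Mmp12 (SE 0.57), both with overlapping groups.

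Medians of the wider lysosomal lists between CCl4 and vehicle lay near 0. Among 9 other lysosomal proteases (cathepsins and legumain) the median log2 difference between CCl4 and vehicle was -0.02, and 0.12 without CCl4 replicate 3. Ctsz, cathepsin Z, was 0.88 higher (SE 0.23, adjusted p 0.0409 in the robust fit), the asparaginyl protease Lgmn was 0.69 higher and not called (0.0571), and Ctsa and Ctsc differed by -0.25 and -0.03 (without CCl4 replicate 3 by -0.01 and 0.04). Among 38 lysosomal hydrolases the median was 0.07 (0.12 without CCl4 replicate 3). The serine carboxypeptidase Scpep1 was the single one called by the robust fit, at 0.90 (SE 0.21, adjusted p 0.0282), while the alpha-mannosidase Man2b1 had a log2 difference of -0.45 without overlap. Among 30 genes of the lysosomal membrane and its proton pump the median was 0.08 and none was called by either fit. With rottlerin in CCl4-treated rats, these 3 lists had medians of 0.11, 0.16 and 0.04 (0.07, 0.05 and -0.02 without CCl4 replicate 3), and neither fit called a gene. Between CCl4+Rot and vehicle the medians were 0.15, 0.29 and 0.05. In that comparison 32 of the 38 hydrolases were higher, 14 of them without overlap, as were 15.2% of all genes.

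The families of single members were read in the same way. Of the cathepsin inhibitors, 7 were measured with a median log2 difference of 0.31 between CCl4 and vehicle, and the leukocystatin Cst7 was 0.82 higher without overlap (adjusted p 0.209 in the robust fit). Other galectins, 8 measured, had a median of 0.39, with Lgals1 at 1.24 (SE 0.36, adjusted p 0.0606 in the robust fit). Lgals3bp, a ligand of galectin-3, was 0.96 higher with rottlerin than with CCl4 alone without overlap (adjusted p 0.736 in limma). Other tetraspanins, 20 measured, had a median of 0.40. The leukocyte tetraspanin Cd53 was at 0.98 (adjusted p 0.0537 in the robust fit), and Cd82 was 0.58 above vehicle with CCl4 and had a log2 difference of -0.25 with rottlerin, neither pair of groups overlapping. The TREM signalling genes, 8 measured, had a median of 0.62, and the adaptor Tyrobp was at 0.75 (adjusted p 0.0811 in the robust fit).

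**Figure D3:**
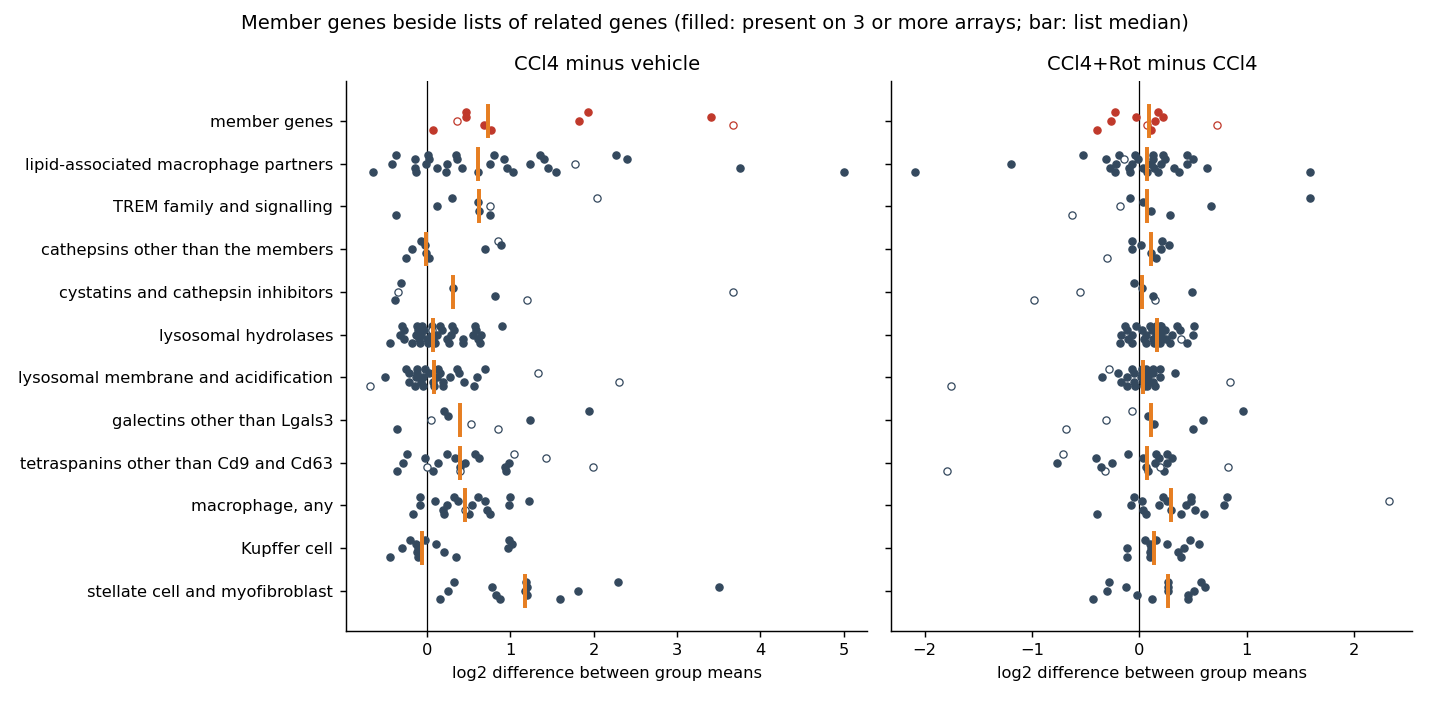
Log2 differences of single genes (circles) for CCl4 minus vehicle (left) and CCl4+Rot minus CCl4 (right), by list, with the 10 genes in red on top and list medians as orange bars. Filled circles are genes present on 3 or more arrays. In the left panel the bars of the 10 genes (0.73), the lipid-associated partners (0.62) and the stellate cell list (1.18) lie right of 0. So do those of the TREM list (0.62), general macrophage genes (0.45), other tetraspanins (0.40), other galectins (0.39) and cathepsin inhibitors (0.31). Those of the other cathepsins (-0.02), hydrolases (0.07), membrane genes (0.08) and Kupffer cell genes (-0.06) lie near it.

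Markers of macrophages and of other cells moved beside the 10 genes, and their part in the result was not tested. Of 19 general macrophage genes, 16 were higher with CCl4 than with vehicle (median 0.45), and their summed signal was 20037 to 28213 with vehicle, 33856 to 39593 with CCl4 and 37916 to 50644 with CCl4+Rot. Lysozyme (Lyz2) was called higher by the robust fit in both comparisons with vehicle, at 1.22 (adjusted p 0.00813) with CCl4, and Itgam was the general macrophage gene called absent on all arrays. The 14 measured Kupffer cell genes had a median of -0.06, which was 0.06 without CCl4 replicate 3, with the scavenger receptor Folr2 at 1.02 (adjusted p 0.0401 in the robust fit), and their summed signal was 31393 to 41788 with vehicle, 30917 to 42033 with CCl4 and 42436 to 44292 with CCl4+Rot. Clec4f, the lectin that marks Kupffer cells, had a log2 difference of -0.45 with CCl4 and of 0.56 with rottlerin, neither called. All 14 stellate cell and myofibroblast genes were higher with CCl4 (median 1.18). The robust fit called 4 of the 14 higher, and 0.693% of all probe sets, while limma without its options called 0 of them. Their summed signal was 11282 to 16888 with vehicle, 22654 to 40018 with CCl4 and 33268 to 42127 with CCl4+Rot. Medians with CCl4 for the further lists were 0.71 for monocyte and granulocyte genes, 0.72 for cholangiocyte genes, 1.31 for mast cell genes, 0.32 for T and NK cell genes, -0.08 for endothelial genes and -0.22 for hepatocyte genes. Without CCl4 replicate 3 the signs of the T and NK cell median (-0.26) and of the endothelial median (0.08) turned, and the hepatocyte median was -0.05.

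Because the 10 genes and the macrophage genes could move together, each gene was also read relative to the mean log2 signal of the 19 general macrophage genes on the same array, a scale chosen after seeing the data that does not depend on how the array was scaled. The macrophage mean itself was 0.45 higher with CCl4 than with vehicle, with overlap, and 0.39 higher with CCl4+Rot than with CCl4, without overlap. Itgam is among the 19 genes though it was called absent on every array. Its log2 signal with CCl4+Rot was 2.32 above CCl4 and 2.77 above vehicle, so background signal adds to the rise of the mean with rottlerin. The mean was not recomputed without Itgam. On this scale Gpnmb was 2.95, Lgals3 1.48 and Cd63 1.37 higher with CCl4 than with vehicle, each without overlap, as were 2.49% of the genes called present on all arrays. The exact two-sided permutation test gave each p = 0.1, the smallest that 3 arrays against 3 allow. Ctsd (0.32), Cd68 (0.23), Cd9 (0.02), Ctss (0.02) and Ctsb (-0.38) overlapped.

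With rottlerin, each difference lies 0.39 lower on this scale by construction, since the macrophage mean was that much higher, and 29.9% of the genes called present on all arrays were lower without overlap. Relative to the macrophage mean, Gpnmb was 2.85, 2.69 and 2.58 on the CCl4 arrays and 2.13, 1.62 and 2.03 on the CCl4+Rot arrays, a log2 difference of -0.78. Lgals3 was 2.23, 1.82 and 1.37 against 1.32, 0.96 and 1.18, a difference of -0.65. Ctsd was 2.51, 2.21 and 2.02 against 1.79, 1.68 and 1.44, a difference of -0.61. In each of these genes, and in Ctss (-0.24), every CCl4+Rot array lay below every CCl4 array, while on the deposited scale none did and Ctss had a difference of 0.15. Cd63 (-0.42), Cd9 (-0.28), Cd68 (-0.21) and Ctsb (-0.17) overlapped. The shift applies to all genes alike, so these separations show nothing particular to the 10 genes. Csf1 and Il34 on the macrophage list are ligands and no cell markers, and without them the differences were -0.85, -0.73 and -0.68 for Gpnmb, Lgals3 and Ctsd, again without overlap. Itgam, absent on all arrays, was kept both with and without the ligands. The gaps were narrow for Lgals3 (lowest CCl4 array 1.37, highest CCl4+Rot array 1.32) and for Ctss (2.16 and 2.13). For Lgals3 and Ctss the separation is therefore not shown to hold without Itgam. Compared with vehicle, the CCl4+Rot rats stood 2.17 higher for Gpnmb, 0.82 for Lgals3 and 0.95 for Cd63 on this scale without overlap, as did 1.45% of the genes called present on all arrays. Ctsb (-0.56) and Ctsd (-0.29) were below vehicle without overlap, as were 82.1% of those genes, and Cd9 (-0.26), Ctss (-0.22) and Cd68 (0.02) overlapped. For Ctsd this turned the difference of 0.55 on the deposited scale.

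**Figure D4:**
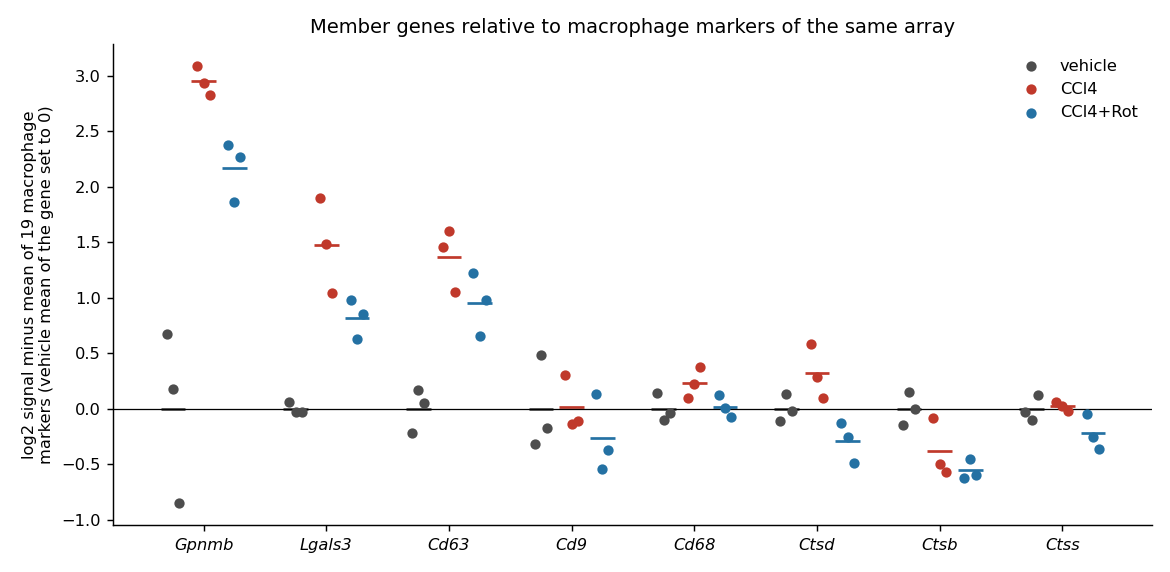
Log2 signal of the 8 genes minus the mean log2 signal of 19 general macrophage genes on the same array, with the vehicle mean of each gene set to 0. Circles are single arrays and bars are group means of 3 arrays. For Gpnmb, Lgals3, Ctsd and Ctss every CCl4+Rot circle lies below every CCl4 circle, as for 29.9% of the genes called present on all arrays. Itgam, absent on all arrays, is among the 19 genes, and for Lgals3 and Ctss this separation is not shown to hold without it. For Gpnmb, Lgals3 and Cd63 both treated groups lie above vehicle.

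The pattern of the 10 genes over the arrays was summarised by the mean of their standardised log2 signals, which was -0.49, -1.25 and -1.36 with vehicle, 0.50, 0.87 and -0.08 with CCl4 and 0.80, 0.29 and 0.72 with CCl4+Rot. CCl4 replicate 3 was the lowest of the 6 treated arrays and lay above all vehicle arrays. Of 9803 other genes with a present call on 3 or more arrays, the 5 with the highest Pearson correlation to this mean over the 9 arrays were Scpep1 (0.987), Cerk (0.983), Timp2 (0.982), Spcs1 (0.978) and Slc29a3 (0.975). The points share the 3 groups, so these correlations describe likeness over 9 arrays only. Scpep1, which also is a lysosomal hydrolase of the list above, had mean log2 signals of 10.59 with vehicle, 11.49 with CCl4 and 11.68 with CCl4+Rot. Timp2, an inhibitor of matrix metalloproteinases, had 9.70, 10.75 and 10.99, and Cerk, ceramide kinase, 8.18, 8.99 and 9.17.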

How the data were processed

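Liver RNA of 9 rats was measured on Affymetrix rat arrays, 3 per group. The authors deposited log2 signals and detection calls (present, marginal, absent) for 31099 probe sets. The submitters' processing notes name MAS5 and affy, and the genome build of the table is not given in the sources used here. The mean of the antilogs, with 2% trimmed at each end, was 500 for all arrays, so these had been scaled to one mean, and no further normalization was applied. After 57 control probe sets were left out, limma 3.58.1 (R 4.3.3, statmod 1.5.0) was fitted to 31042 probe sets with 3 group means over all 9 arrays. A call needed a Benjamini-Hochberg adjusted p below 0.05 over all probe sets and at least 1.5-fold, the fold of the study's methods.

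The 10 genes, the 17 gene lists and the tests were chosen with earlier results of these data known. A gene absent on both groups got no fold. For one present in a single group, each dim signal was taken at no less than the lowest present-called signal of that array. That floor was low (log2 2.31 to 3.64), so such a fold is an estimate and no minimum. Named list genes were those called, or up to 3 with the smallest p in either of the CCl4 and rottlerin comparisons, present on at least 3 arrays. Genes named outside this rule are marked. The alternatives were quantile normalization, median centring, dropping the dimmest 30% of probe sets, fitting only the groups compared and the robust fit. Further alternatives were the methods' t-test, other fold thresholds, other probe set rules, replicate number as a block and each array left out. Added after seeing the data were a filter for presence on at least 3 arrays, the robust fit with it or without CCl4 replicate 3, and the scale relative to macrophage genes. The fits were tested on simulated data. Precision is limited by the number of arrays.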

Additional observations from a re-analysis of the deposited data

How the results depend on the processing

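Limma called none of the 10 genes in any comparison under quantile normalization, median centring, the filter on dim probe sets, a fit of only the groups compared, other fold thresholds, other probe set rules or with any single array left out. The robust fit called 5 genes with CCl4 and 4 with CCl4+Rot against vehicle, and without CCl4 replicate 3 it called 4 and 4. The methods' t-test without adjustment passed 5 and 6 (5.71% and 6.85% of all probe sets). With probe sets present on at least 3 arrays, limma called 3 and 3 and the robust fit 4 and 3. Between CCl4+Rot and CCl4 all of these gave 0. The share of all probe sets called was not computed with the filter for presence or without CCl4 replicate 3. Counts under those settings therefore describe the 10 genes only.

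The count of genes not overlapping with CCl4 fell from 7 to 4 under median centring, and their median log2 difference from 0.73 to 0.37. With arrays left out in turn that median ran from 0.62 to 1.30. Between CCl4+Rot and CCl4, quantile normalization gave 1 gene not overlapping where the deposited values gave 0, and leaving out arrays gave 0 to 4. The share of all genes not overlapping was computed without CCl4 replicate 3 (10.4% lower) and without CCl4 replicate 2 (12.3% higher). It was not computed under the other settings, so their counts describe the 10 genes only. Signs turned for Ctsb with CCl4 (-0.29) and for Cd63 (0.22) and Ctsd (0.024) with rottlerin under median centring, and, with arrays left out in turn, for Cd63 (-0.20 to 0.20, above 0 without CCl4 replicate 2 or CCl4+Rot replicate 5) and for Cd9 (-0.059 to 0.31, below 0 without CCl4+Rot replicate 4) with rottlerin, none of them called. Ctsk with CCl4 ran from -0.46 to 1.71 with arrays left out in turn, below 0 without CCl4 replicate 1. Some alternatives hold fewer arrays or probe sets, and the cause of these changes was not tested.

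Some groups share animal numbers in the labels, but each number names a different rat. With the number as a replicate block (consensus correlation -0.03), limma called 0 of the 10 genes in each comparison, as without it. Signals near background limit what can be said of Trem2 and Ctsk.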
